A study of Mus musculus with 8 samples.

Results

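Lipoprotein lipase, encoded by Lpl, was examined together with its partners and with genes of lipid uptake and storage in cultured mouse forelimb buds. The 10 genes are Lpl, Gpihbp1, Lmf1, Angptl4, Lipg, Cd36, Vldlr, Plin2, Lipe and Pnpla2, out of 21692 genes in the deposited table. They were chosen by gene name with the comparison of exposed and control libraries already known, in which Lpl and Cd36 differed. Their differences between the groups are therefore given as a description. Where the fit of all genes placed one of them past its threshold this is stated, but it is no independent test of the gene. All 10 had enough reads to be among the 15517 genes tested.

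The exposed group (OPE) held 4 libraries from forelimb buds cultured for 24 h with a house dust-based mixture of organophosphate esters, diluted 1 in 300000. Organophosphate esters are flame retardants and plasticisers that leave consumer products and collect in dust. The control group (vehicle) held 4 libraries from buds cultured for 24 h with the solvent dimethyl sulfoxide (DMSO). Both groups came from CD1 mouse embryos of gestation day 13, and the labels are silent on litters and on pooling of buds, so p-values measure the spread between these libraries, which may be technical.

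Lipoprotein lipase is made by the cells of a tissue and carried to the inner surface of capillaries, where it cuts the triglyceride of circulating lipoproteins and frees fatty acids for uptake. Its activity depends on a maturation factor in the endoplasmic reticulum, on an endothelial anchor that moves it across the vessel wall, and on inhibitors of the angiopoietin-like family. Limb buds in culture have no blood flow, and RNA measures the transcripts of these genes, not enzyme activity or lipid uptake.

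Totals of counted reads were 14986793 to 21806141 in OPE libraries and 17549560 to 22006738 in vehicle libraries. Limb mesenchyme markers, among them Prrx1 and the forelimb factor Tbx5, summed to 1240 to 1370 CPM (read counts scaled by the TMM-adjusted total of the library) in OPE libraries and 1260 to 1310 in vehicle libraries. Markers of macrophages were lower in every OPE library, with a sum of 33.5 to 88.8 CPM over 12 of 13 listed genes in OPE libraries, against 175 to 210 CPM in vehicle libraries; the remaining marker, Adgre1, had no row in the table used here. Endothelial markers summed to 137 to 256 CPM in OPE libraries and 287 to 353 CPM in vehicle libraries. Of these markers Emcn alone had the higher mean in OPE libraries, 12.9 ± 2.93 CPM against 10.2 ± 0.783 CPM in vehicle libraries (SD, n = 4 each). Adipocyte markers were near 0 in both groups, with 5 of 10 markers in the table and sums of 0.799 to 1.38 CPM in OPE libraries and 1.75 to 4.44 CPM in vehicle libraries. The defining adipocyte genes Adipoq and Lep likewise had no row, and Plin1 had 5 reads in all OPE libraries together and 34 in all vehicle libraries together.

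The fitted level of Lpl in OPE libraries was 47.7% of that in vehicle libraries and that of Cd36 was 49.7%, and the other 8 genes were between 75.8% (Gpihbp1) and 135% (Vldlr). All 4 OPE values lay below all 4 vehicle values for Lpl and Cd36, the 8 other genes overlapped between the groups, and no gene had all its OPE values above its vehicle values. Among all genes tested, 5.44% had all OPE values below and 4.05% all OPE values above the vehicle values. The log2 fold change of OPE over vehicle was below 0 for 6 of the 10 genes and above 0 for 4, and the median was −0.136, beside 0.014 over all genes tested. Pnpla2, at −0.02, turned to 0.02 when a trend of fold change with gene length was removed. In the edgeR quasi-likelihood fit of all genes, with p-values adjusted over all of them by the Benjamini-Hochberg method, Lpl and Cd36 passed a threshold of 0.05, both lower. These were 2 of 10, beside 0.477% of all genes tested in either direction, 0.438% lower and 0.0387% higher. Since this comparison was used to choose the genes, nothing is read from that count. With the gene length trend removed, the calls over all genes split into 170 lower and 151 higher, against 68 lower and 6 higher in the fit reported here, and Lpl and Cd36 passed in both. By the authors' deposited table, 2.68% of the genes with an adjusted p were under 0.05, and of the 10 genes again Lpl and Cd36.

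**Figure D1:**
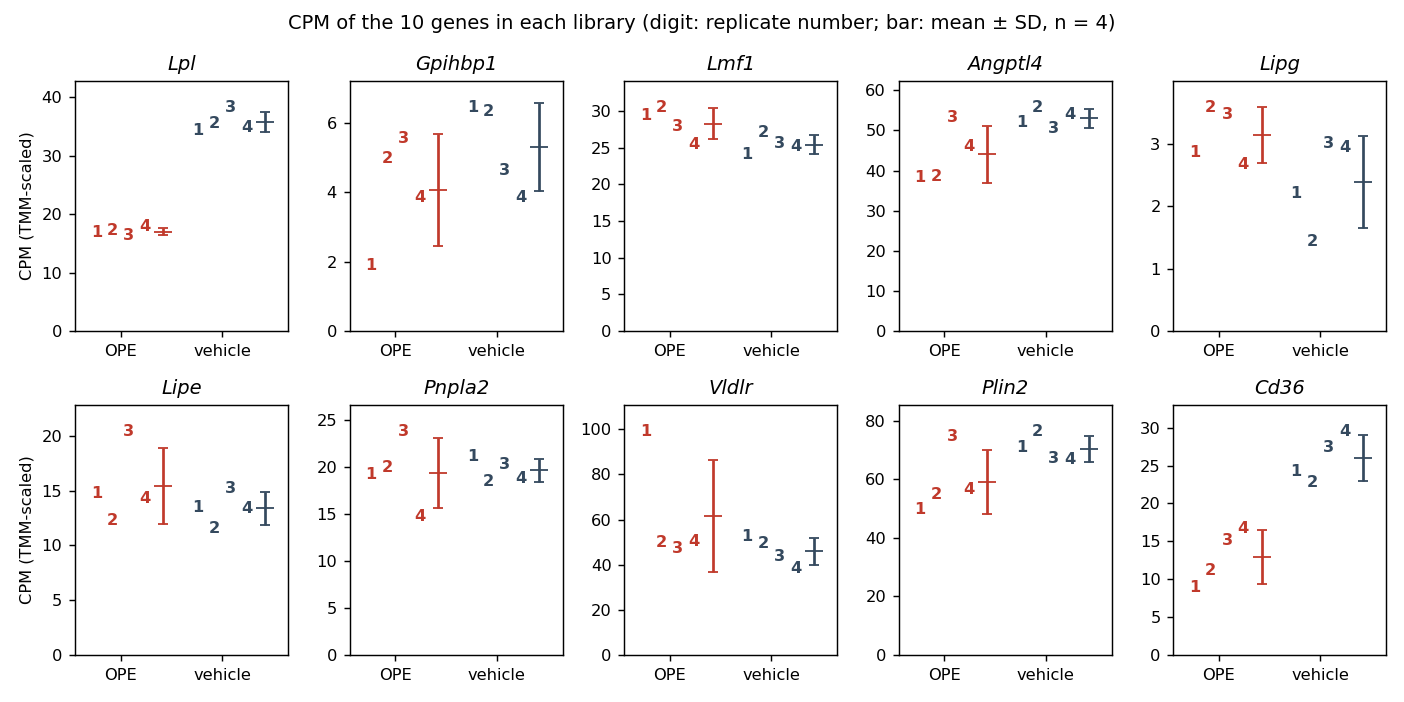
CPM of each gene (y axis, CPM with TMM-scaled totals, from 0) in the 4 OPE libraries, left in red, and the 4 vehicle libraries, right in dark blue. Digits are replicate numbers and bars show the mean ± SD. Lpl and Cd36 are the only 2 panels without overlap between the groups, and the Vldlr value of OPE 1, 99.0 CPM, stands apart from the other OPE values of 47.2 to 50.2 CPM.

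Lpl itself, on chromosome 8 from 68880491 to 68907448 on the plus strand (build mm10), had 16.8, 17.2, 16.3 and 17.9 CPM in OPE 1 to 4, against 34.4, 35.5, 38.2 and 34.8 CPM in vehicle 1 to 4. The OPE libraries were close to one another and all lay below the lowest vehicle library. The means were 17.1 ± 0.651 CPM in OPE libraries and 35.7 ± 1.72 CPM in vehicle libraries (SD, n = 4 each), a log2 fold change of −1.07 ± 0.09 (SE). Each OPE library held 45.6% to 50.0% of the vehicle mean. Its coefficient of variation was 3.82% in OPE libraries, the lowest of the 10 genes there, and 4.83% in vehicle libraries, where of the 10 genes Angptl4 alone was lower at 4.29%. The values rest on 235 to 365 reads per OPE library and 609 to 816 reads per vehicle library. In bulk tissue, fewer cells that express Lpl and less Lpl RNA per cell cannot be told apart.

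The macrophage marker sum, which also differed between the groups, did not have the same pattern within the OPE group. It was 33.5, 59.5, 88.8 and 80.8 CPM in OPE 1 to 4, and Lpl was at 16.8 and 16.3 CPM in the OPE libraries with the lowest and the highest sum. The sum does not stand for each of its markers. Spi1 averaged 2.5 ± 0.35 CPM in OPE libraries and 5.84 ± 0.729 CPM in vehicle libraries (SD, n = 4 each). Lyz2 averaged 12.1 ± 6.17 CPM in OPE libraries and 40.0 ± 6.7 CPM in vehicle libraries, with the wider relative spread in the OPE group. The part of macrophages in the Lpl difference was not tested. Beside Lpl, the sum of limb mesenchyme markers differed little between the groups, and the chondrocyte marker sum was 8460 ± 430 CPM in OPE libraries and 8920 ± 680 CPM in vehicle libraries (SD, n = 4 each). Skeletal muscle markers, whose tissue is a known site of Lpl, summed to 2200 to 3390 CPM in OPE libraries and 2760 to 3100 CPM in vehicle libraries. Single muscle markers went both ways. Myh8 averaged 163 ± 26.4 CPM in OPE libraries and 243 ± 6.87 CPM in vehicle libraries, and Myod1 137 ± 22.2 and 116 ± 6.11 CPM (SD, n = 4 each).

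Of the partners of the lipase, Gpihbp1, Lmf1 and Angptl4 overlapped between the groups. Gpihbp1 encodes the protein of capillary endothelial cells that binds the lipase and carries it to the vessel lumen, and it lies on chromosome 15 from 75596628 to 75599481 on the plus strand. It had 1.89, 4.96, 5.55 and 3.86 CPM in OPE 1 to 4, against 6.43, 6.32, 4.64 and 3.86 CPM in vehicle 1 to 4. OPE 1 was the lowest library, and OPE 2 to 4 lay within the range of the vehicle libraries or at its lower end. The log2 fold change was −0.40 ± 0.30 (SE), and −0.15 without OPE 1. The gene was counted from 41 to 80 reads per OPE library and 87 to 124 reads per vehicle library, so its values are less precise than those of Lpl. OPE 1 was also the library with the lowest endothelial marker sum, 137 CPM, against 215 to 256 CPM in the other 3 OPE libraries; whether the share of endothelial cells plays a part was not tested.

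Lmf1, the lipase maturation factor that lets the newly made enzyme fold into its active form, is on chromosome 17 from 25579174 to 25662826 on the plus strand. It had 29.3, 30.4, 27.9 and 25.4 CPM in OPE 1 to 4, against 24.0, 27.0, 25.5 and 25.1 CPM in vehicle 1 to 4. OPE 1, 2 and 3 were above every vehicle library and OPE 4 was within the vehicle range. The log2 fold change was 0.15 ± 0.10 (SE).

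Angptl4 encodes a secreted inhibitor that inactivates the lipase, and it is known as a gene induced by fasting, by PPAR receptors and by low oxygen. It is on chromosome 17 from 33773750 to 33781575 on the minus strand. It had 38.2, 38.6, 53.2 and 46.1 CPM in OPE 1 to 4, against 51.9, 55.6, 50.4 and 54.0 CPM in vehicle 1 to 4. OPE 1, 2 and 4 lay below every vehicle library and OPE 3 lay within the vehicle range. The means were 44.0 ± 7.12 CPM in OPE libraries and 53.0 ± 2.27 CPM in vehicle libraries (SD, n = 4 each), a log2 fold change of −0.27 ± 0.11 (SE), or −0.37 without OPE 3.

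Lipg encodes endothelial lipase, a relative of lipoprotein lipase that acts mainly on the phospholipids of high-density lipoprotein, and lies on chromosome 18 from 74939322 to 74961263 on the minus strand. It had 2.86, 3.57, 3.47 and 2.66 CPM in OPE 1 to 4, against 2.2, 1.43, 3.0 and 2.93 CPM in vehicle 1 to 4. OPE 2 and 3 were above the vehicle libraries and OPE 1 and 4 within their range. The log2 fold change was 0.39 ± 0.25 (SE), and between 0.20 and 0.51 when single libraries were left out.

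Among the uptake genes, Cd36 had the lower values in OPE libraries and Vldlr was high in a single OPE library. Cd36 encodes a membrane protein that takes up long-chain fatty acids and oxidised lipoproteins in fat, muscle, capillary endothelium and macrophages, and it lies on chromosome 5 from 17781690 to 17888959 on the minus strand. It had 8.86, 11.2, 15.1 and 16.7 CPM in OPE 1 to 4, against 24.2, 22.8, 27.4 and 29.5 CPM in vehicle 1 to 4. Every OPE library was below every vehicle library, but the OPE libraries were farther apart than for Lpl, from 34.1% to 64.4% of the vehicle mean. The means were 13.0 ± 3.57 CPM in OPE libraries and 26.0 ± 3.06 CPM in vehicle libraries (SD, n = 4 each), a log2 fold change of −1.01 ± 0.19 (SE). Cd36 no longer passed the threshold without OPE 1, OPE 2 or any 1 of the 4 vehicle libraries, with log2 fold changes of −1.07 to −0.87 in those fits. OPE 1 and 2, the lowest for Cd36, were also the lowest for the macrophage sum, with 33.5 and 59.5 CPM against 80.8 and 88.8 CPM in OPE 4 and 3, and for the endothelial sum, with 137 and 215 CPM against 235 and 256 CPM in OPE 3 and 4. Their part in the Cd36 values was not tested.

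Vldlr, the receptor that binds triglyceride-rich lipoproteins and works beside the lipase in muscle and fat, is on chromosome 19 from 27216484 to 27254231 on the plus strand. It had 99.0, 49.8, 47.2 and 50.2 CPM in OPE 1 to 4, against 52.3, 49.2, 43.5 and 38.4 CPM in vehicle 1 to 4. OPE 1 was far above the other 7 libraries, and OPE 2 to 4 lay within the vehicle range. The log2 fold change was 0.43 ± 0.22 (SE), and 0.09 without OPE 1. A list of 10 stress targets of the transcription factor ATF4, chosen with the data in view and including Asns, Chac1, Trib3 and Ddit3, also had its highest sum in OPE 1. That sum was 1440 CPM in OPE 1 and 716 to 956 CPM in OPE 2 to 4, against 460 to 548 CPM in vehicle libraries. OPE 2 to 4 thus exceeded the vehicle libraries for the ATF4 targets but not for Vldlr; a link between the list and Vldlr was not tested.

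Of the genes of lipid storage, Plin2 lay below the vehicle range in 3 OPE libraries, and the lipases of the droplet, Pnpla2 and Lipe, had most OPE values within the vehicle range or on both sides of it. Plin2 encodes perilipin 2, which coats lipid droplets in most cells outside fat, and lies on chromosome 4 from 86648386 to 86670060 on the minus strand. It had 49.6, 54.9, 74.8 and 56.7 CPM in OPE 1 to 4, against 70.9, 76.4, 67.2 and 66.8 CPM in vehicle 1 to 4. OPE 1, 2 and 4 lay below every vehicle library and OPE 3 within the vehicle range, the same libraries as for Angptl4. The means were 59.0 ± 11.0 CPM in OPE libraries and 70.3 ± 4.44 CPM in vehicle libraries (SD, n = 4 each), a log2 fold change of −0.25 ± 0.12 (SE). Without OPE 3 it was −0.39, and Plin2 then passed the threshold.

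Pnpla2, the adipose triglyceride lipase that takes the first fatty acid from stored triglyceride, is on chromosome 7 from 141455198 to 141460743 on the plus strand. It had 19.2, 20.0, 23.8 and 14.7 CPM in OPE 1 to 4, against 21.1, 18.5, 20.3 and 18.8 CPM in vehicle 1 to 4. The OPE libraries lay on both sides of the vehicle range, and the log2 fold change was −0.02 ± 0.14 (SE).

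Lipe, the hormone-sensitive lipase that acts next on the diglyceride, is on chromosome 7 from 25379527 to 25398710 on the minus strand. It had 14.7, 12.3, 20.4 and 14.3 CPM in OPE 1 to 4, against 13.5, 11.5, 15.2 and 13.4 CPM in vehicle 1 to 4. Only OPE 3 was outside the vehicle range, and the log2 fold change was 0.20 ± 0.16 (SE), or 0.04 without OPE 3. In the GENCODE M21 annotation 15.6% of the exonic bases of Lipe are shared with a gene on the opposite strand, 4732471J01Rik, and whether the counting used strand is not stated in the sources used here.

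In the authors' deposited table all 10 genes had the same direction as in the fit above. The log2 fold changes of OPE over vehicle in the authors' deposited table were −0.99 for Lpl and −0.78 for Cd36, and the largest of the others were 0.31 for Vldlr, 0.24 for Lipg and −0.24 for Angptl4.

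Levels could be compared between genes on the deposited FPKM values, which divide reads by gene length and library total. In vehicle libraries Plin2 was highest, at 37.9 ± 2.42 FPKM, and ranked 1884 among the 21692 genes. Angptl4 followed at 17.6 ± 0.843 FPKM and Lpl came next at 8.83 ± 0.422 FPKM (SD, n = 4 each). Each of these 3 had its 4 values apart from the next gene in the order. Lpl was not apart from every lower-ranked gene. Its lowest vehicle value, 8.43 FPKM, lay below the highest vehicle value of Cd36, 8.47 FPKM. Pnpla2 at 7.61 ± 0.434, Cd36 at 7.41 ± 0.894, Lmf1 at 6.69 ± 0.351 and Vldlr at 5.84 ± 0.758 FPKM formed a run in which each gene's values overlapped with those of its neighbour, so neighbours in this run did not differ beyond their spread. Lipe at 3.67 ± 0.405 FPKM and Gpihbp1 at 3.27 ± 0.773 FPKM overlapped as well. Lipg was lowest at 0.642 ± 0.198 FPKM, apart from all others. The storage coat and the inhibitor were thus at higher levels than the enzyme, and the anchor Gpihbp1 was at a lower level than the enzyme. In OPE libraries Lpl ranked 6 and Cd36 ranked 8 in the order of means, at 4.07 ± 0.285 and 3.56 ± 0.96 FPKM, while Plin2, Angptl4, Pnpla2, Gpihbp1 and Lipg kept their places in the order. FPKM are scaled by library totals without the TMM factors, and on that scale Angptl4 did not overlap either. It had 12.4 to 16.2 FPKM in OPE libraries and 16.8 to 18.6 FPKM in vehicle libraries. OPE 3, within the vehicle range for Angptl4 on CPM, had the lowest TMM factor of all libraries, 0.9297. The shares of all genes without overlap given above are for CPM, and none is given for FPKM, so nothing is read from this.

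**Figure D2:**
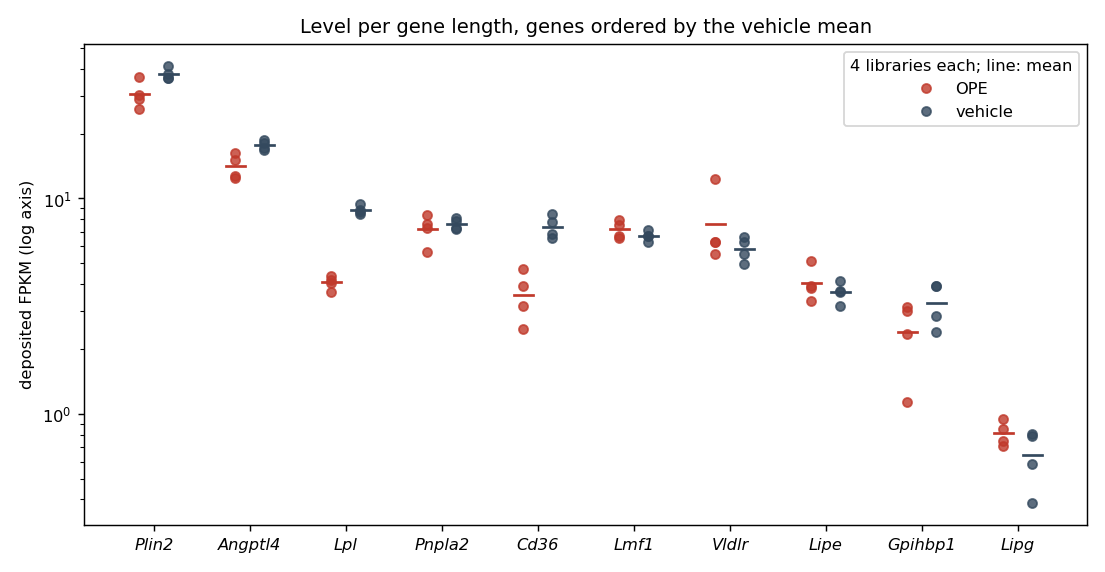
Deposited FPKM (y axis, log scale) of the 10 genes in each of 4 OPE libraries (red, left) and 4 vehicle libraries (dark blue, right), with a line at each mean. Genes are ordered by their vehicle mean, which runs from 37.9 FPKM for Plin2 to 0.642 FPKM for Lipg, and the widest gaps between the groups are those of Lpl and Cd36.

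The library profile of Lpl was compared with that of 13209 tested genes with a usual gene symbol and a mean of at least 1 CPM. Genes without a usual symbol, such as predicted genes, were left out, so the ranks hold among named genes. The measure was the mean absolute difference of log2 CPM over the 8 libraries, each gene set relative to its own vehicle mean. The 8 nearest genes were Irf5, Ankle1, Col22a1, Spi1, Runx3, Laptm5, Sp7 and Alpl, with mean differences of 0.11 for Irf5 to 0.167 for Alpl on the log2 scale. Irf5 averaged 1.82 ± 0.237 CPM in OPE libraries and 3.69 ± 0.37 CPM in vehicle libraries (SD, n = 4 each). Alpl, tissue-nonspecific alkaline phosphatase, averaged 18.6 ± 3.02 CPM in OPE libraries and 34.8 ± 4.03 CPM in vehicle libraries (SD, n = 4 each). By construction these genes share the Lpl difference between the groups, so their likeness describes the same comparison; Spi1 is also among the macrophage markers above. When the largest instead of the mean difference over the libraries was used, 4 of the 8 were among the nearest 8 again. Of the other genes of lipid handling examined here, Cd36 ranked 47 in likeness to Lpl, Angptl4 1121 and Plin2 1278, and the partners Gpihbp1 and Lmf1 ranked 4259 and 9118. Pnpla2 ranked 4432, and Lipe, Vldlr and Lipg ranked 10720, 12611 and 12975, the last near the end of the 13209 genes.

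The genomic neighbours of the 10 genes gave a comparison that did not enter their choice, by a rule chosen with the data in view. The rule took the nearest tested protein-coding gene on each side that did not overlap the gene. Non-coding and overlapping genes were passed over. None of the 20 neighbours passed the threshold in edgeR; 4 had an unadjusted p under 0.05, 1 passed in DESeq2 (Chtf18 beside Lmf1, log2 fold change −0.60, DESeq2 adjusted p = 0.00579) and 0 in limma-voom. Over all genes tested, 13.2% had an unadjusted p under 0.05 in edgeR, 2.81% passed in DESeq2 and 0.651% in limma-voom. On either side of Lpl, Ints10, a subunit of the Integrator complex at 51.1 kb, had a log2 fold change of 0.16 ± 0.09 (SE; edgeR adjusted p = 0.467). Slc18a1, a vesicular monoamine transporter at 130 kb on the other side, had −1.04 ± 0.34 (SE; edgeR adjusted p = 0.21), with all OPE values below all vehicle values. Beside Cd36, Sema3c at 51.4 kb had −0.11 ± 0.10 (SE; edgeR adjusted p = 0.7) and Gnai1 at 376 kb had 0.03 ± 0.11 (SE; edgeR adjusted p = 0.949).

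Promoter sequence is shown for Cd36, the gene with the second largest difference, for Plin2, which carried the same pair of motifs, and for Vldlr, whose value in OPE 1 stood apart. The sequences are the 250 bases before the transcription start in RefSeq (build GRCm38.p6), 5′ to 3′ on the gene's strand, with motif matches in capitals. The RefSeq table held 8 start sites for 6 of the 10 genes. Lpl, Angptl4, Gpihbp1 and Lipg are named only.
Cd36, chr5:17835897-17836146, minus strand: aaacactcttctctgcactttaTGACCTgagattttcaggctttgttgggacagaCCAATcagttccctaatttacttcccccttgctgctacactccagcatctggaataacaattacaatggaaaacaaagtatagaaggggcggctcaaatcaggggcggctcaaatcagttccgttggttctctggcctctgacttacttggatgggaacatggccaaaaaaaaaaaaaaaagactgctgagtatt
Plin2, chr4:86670060-86670309, minus strand: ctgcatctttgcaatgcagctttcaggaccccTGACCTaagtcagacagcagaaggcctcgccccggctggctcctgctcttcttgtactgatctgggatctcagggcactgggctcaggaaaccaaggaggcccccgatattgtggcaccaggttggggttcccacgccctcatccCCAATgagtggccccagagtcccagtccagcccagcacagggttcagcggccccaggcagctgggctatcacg
Vldlr, second start, chr19:27216770-27217019, plus strand: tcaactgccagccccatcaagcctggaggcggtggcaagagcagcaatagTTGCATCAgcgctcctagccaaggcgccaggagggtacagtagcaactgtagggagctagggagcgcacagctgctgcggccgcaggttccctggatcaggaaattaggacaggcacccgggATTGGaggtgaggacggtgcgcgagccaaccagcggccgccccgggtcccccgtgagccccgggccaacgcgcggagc

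In these windows 5 motifs were searched on both strands, and the capitals mark all matches. They were TATAAA (the TATA box), CCAAT (the CCAAT box), AGGTCA (the repeated unit of the sites of nuclear receptors such as PPARs with RXR), ACGTG (the core of the hypoxia response element) and TGATGNAA (the core of the site of ATF4 with C/EBP). The printed Cd36 and Vldlr windows and both Lipe windows lie inside the span of their gene in the deposited table. The Cd36 window held CCAAT 195 to 191 bases before the start and AGGTCA on the opposite strand, read as TGACCT, 228 to 223 bases before it. The Plin2 window held CCAAT 73 to 69 bases before the start and AGGTCA on the opposite strand 218 to 213 bases before it. The Vldlr window held CCAAT on the opposite strand, read as ATTGG, 78 to 74 bases before the start and TGATGNAA on the opposite strand 200 to 193 bases before it. Of the other 5 windows only that of the first Lipe start held a match, ACGTG on both strands in an overlapping pair, 155 to 150 bases before the start. Among 32851 mouse promoter windows of the same length, 33.8% held CCAAT, 14.0% AGGTCA, 16.6% ACGTG, 12.4% TATAAA and 3.45% TGATGNAA, so matches of the first 4 are common. The share of TGATGNAA is per window, 8 windows were searched, and the window of the first Vldlr start held no match. A match is a stretch of letters, and binding was not measured.

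The other genes of lipid handling were described by 6 lists that hold none of the 10 genes. Of 118 listed genes 111 were in the table and 100 were tested. One passed the threshold in edgeR, Apoc1, which was lower; DESeq2 called 9 and limma-voom 0, beside 0.477%, 2.81% and 0.651% of all genes tested in edgeR, DESeq2 and limma-voom. An unadjusted p under 0.05 in edgeR was found for 24 of the 100, beside 13.2% of all genes tested, and the counts of the single lists below are set against these same shares. The log2 fold changes were above 0 for 47 and below 0 for 53, and the median was −0.02, beside 0.014 over all genes tested.

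Among 12 tested genes that handle the lipase or are its ligands, the median was −0.03. Apoc1, an apolipoprotein that inhibits the lipase, fell by 2.22 ± 0.41 on the log2 scale (SE; edgeR adjusted p = 0.0452), with 17 reads in all OPE libraries together and 98 in all vehicle libraries together. It did not pass in limma-voom (adjusted p = 0.0501), nor in edgeR without OPE 1, OPE 2 or any 1 vehicle library (adjusted p = 0.082 to 0.144). The 3 genes of the list with the highest vehicle level were Apoe, the apolipoprotein that lipoprotein receptors bind, and the heparan sulfate proteoglycans Sdc1 and Hspg2. Apoe averaged 107 ± 20.1 FPKM in OPE libraries and 179 ± 16.3 FPKM in vehicle libraries (SD, n = 4 each), a log2 fold change of −0.68 ± 0.14 (SE; edgeR adjusted p = 0.0656), and without OPE 3 it passed (−0.86, adjusted p = 0.000624). Beside Apoc1, DESeq2 also called Apoe, the phospholipid transfer protein Pltp (−0.48, DESeq2 adjusted p = 0.0327) and the transcription factor Klf15, which was higher (0.78, DESeq2 adjusted p = 0.00172). Sdc1 had −0.04 ± 0.09 and Hspg2 −0.02 ± 0.12 (SE). Apoc1 and Apoe are known macrophage transcripts, and the macrophage sum given above was lower in every OPE library; its part in their values was not tested.

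Among 16 tested genes of fatty acid uptake, binding and activation, none passed in edgeR, 7 had an unadjusted p under 0.05, DESeq2 called 2 (Fabp4, lower, and Acsl3, higher) and limma-voom 0, and the median was −0.06. Of those with the highest level, Dbi, the acyl-CoA binding protein, had a log2 fold change of 0.22 ± 0.22, Got2 −0.04 ± 0.08 and Fabp5, a fatty acid binding protein, −0.48 ± 0.20 (SE). Fabp4, a binding protein of adipocytes, capillary endothelium and macrophages named after its values were seen, had 1.02, 1.06, 3.19 and 1.67 CPM in OPE 1 to 4, against 2.82, 3.57, 5.48 and 6.44 CPM in vehicle 1 to 4. Its groups overlapped through OPE 3, and its log2 fold change of −1.43 ± 0.39 had an edgeR adjusted p of 0.135 (SE).

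Among 15 tested lipoprotein receptors and their helpers, none passed in edgeR, 4 had an unadjusted p under 0.05, DESeq2 called 2 (among them the scavenger receptor Msr1, lower) and limma-voom 0, and the median was 0.01. Lrpap1, the chaperone of this receptor family, had a log2 fold change of −0.04 ± 0.09, Lrp1, a large endocytic receptor, 0.13 ± 0.12 and Lrp6, a Wnt co-receptor, 0.01 ± 0.15 (SE). Among 17 tested genes of lipid droplets and lipolysis none passed in edgeR, DESeq2 or limma-voom, 4 had an unadjusted p under 0.05 in edgeR, and the median was 0.01. Plin3, which coats droplets as Plin2 does, averaged 35.7 ± 2.61 FPKM in OPE libraries and 36.8 ± 3.17 FPKM in vehicle libraries (SD, n = 4 each). The log2 fold changes of Aup1 and Dgat1, which makes triglyceride, were 0.17 ± 0.12 and 0.15 ± 0.09 (SE).

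Among 17 tested PPAR receptors, partners and lipid regulators none passed in edgeR, DESeq2 or limma-voom, 2 had an unadjusted p under 0.05 in edgeR, and the median was 0.00. The nuclear receptors Nr1h2, Rxra and Rxrb had log2 fold changes of 0.09 ± 0.09, 0.09 ± 0.10 and 0.14 ± 0.10 (SE). Among 23 tested genes of fatty acid oxidation none passed in edgeR, 3 had an unadjusted p under 0.05, DESeq2 called 1 and limma-voom 0, and the median was −0.04. Etfb, of the electron transfer flavoprotein, had 0.07 ± 0.19, Eci2 0.06 ± 0.13 and Hadha, of the trifunctional protein, −0.19 ± 0.08 (SE).

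**Figure D3:**
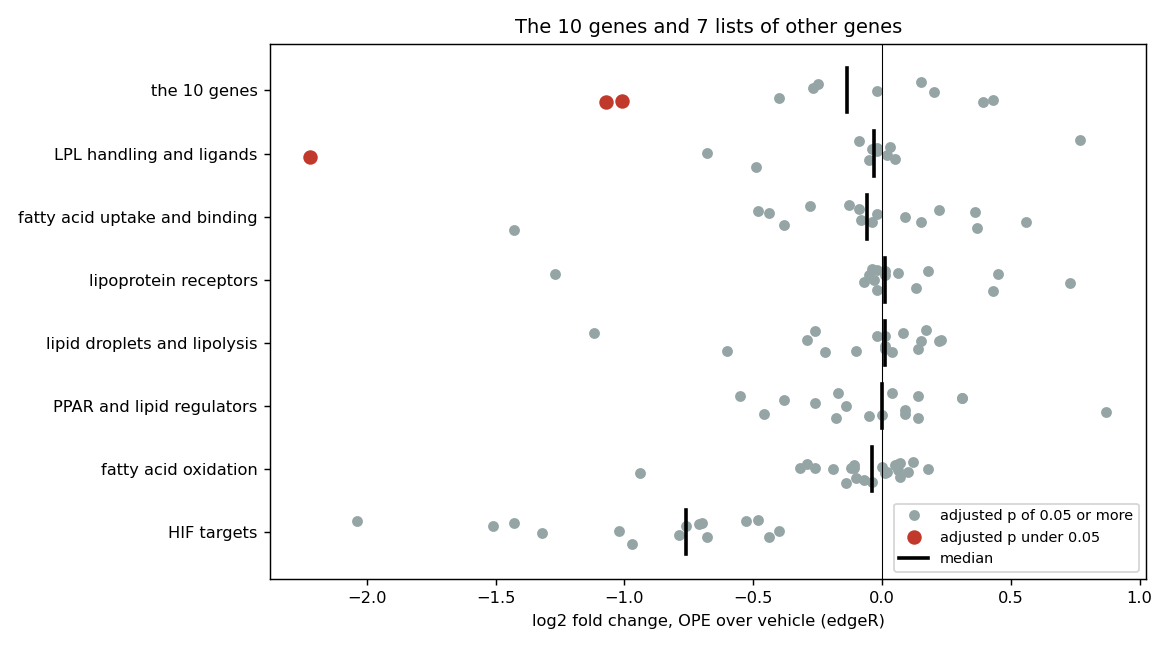
Log2 fold change of OPE over vehicle (x axis) for the 10 genes (top row) and for the tested genes of 7 lists of other genes, 1 point per gene, with a bar at each median. The medians of the 6 lipid lists lie between −0.06 and 0.01, Apoc1 is the single coloured point among them, and all 15 HIF targets lie below 0.

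Angptl4, Plin2 and Vldlr are known as genes that low oxygen can induce, so a list of 15 tested targets of the hypoxia-inducible factors (HIF) outside lipid metabolism was set beside them. All 15 had log2 fold changes below 0, also with library totals, with size factors of DESeq2 and with the gene length trend removed, and the median was −0.76. None passed in edgeR; 13 had an unadjusted p under 0.05, DESeq2 called 5 (Ldha, Egln3, Adm, Eno1 and Slc16a3, all lower) and limma-voom 0. All genes tested had an unadjusted p under 0.05 in 13.2% of cases in either direction and in 7.31% with a lower value in OPE libraries, and 2.81% passed in DESeq2. The glycolytic genes Aldoa, Ldha and Eno1 had −0.71 ± 0.23, −0.68 ± 0.21 and −0.76 ± 0.20 (SE; edgeR adjusted p = 0.207, 0.184 and 0.119). The summed level was 1420, 2230, 2100 and 1590 CPM in OPE 1 to 4, against 3870, 3470, 2620 and 1890 CPM in vehicle 1 to 4. The vehicle libraries were farther apart for this sum than for Lpl, Angptl4 and Plin2: vehicle 1 and 4 had 3870 and 1890 CPM for the sum and 34.4 and 34.8 CPM for Lpl, 51.9 and 54.0 CPM for Angptl4 and 70.9 and 66.8 CPM for Plin2. Vldlr had the same order as the sum among the vehicle libraries, with 52.3, 49.2, 43.5 and 38.4 CPM, but not among the OPE libraries, where OPE 1 had the highest Vldlr and the lowest sum. The part of these targets in the values of the 10 genes was not tested.

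**Figure D4:**
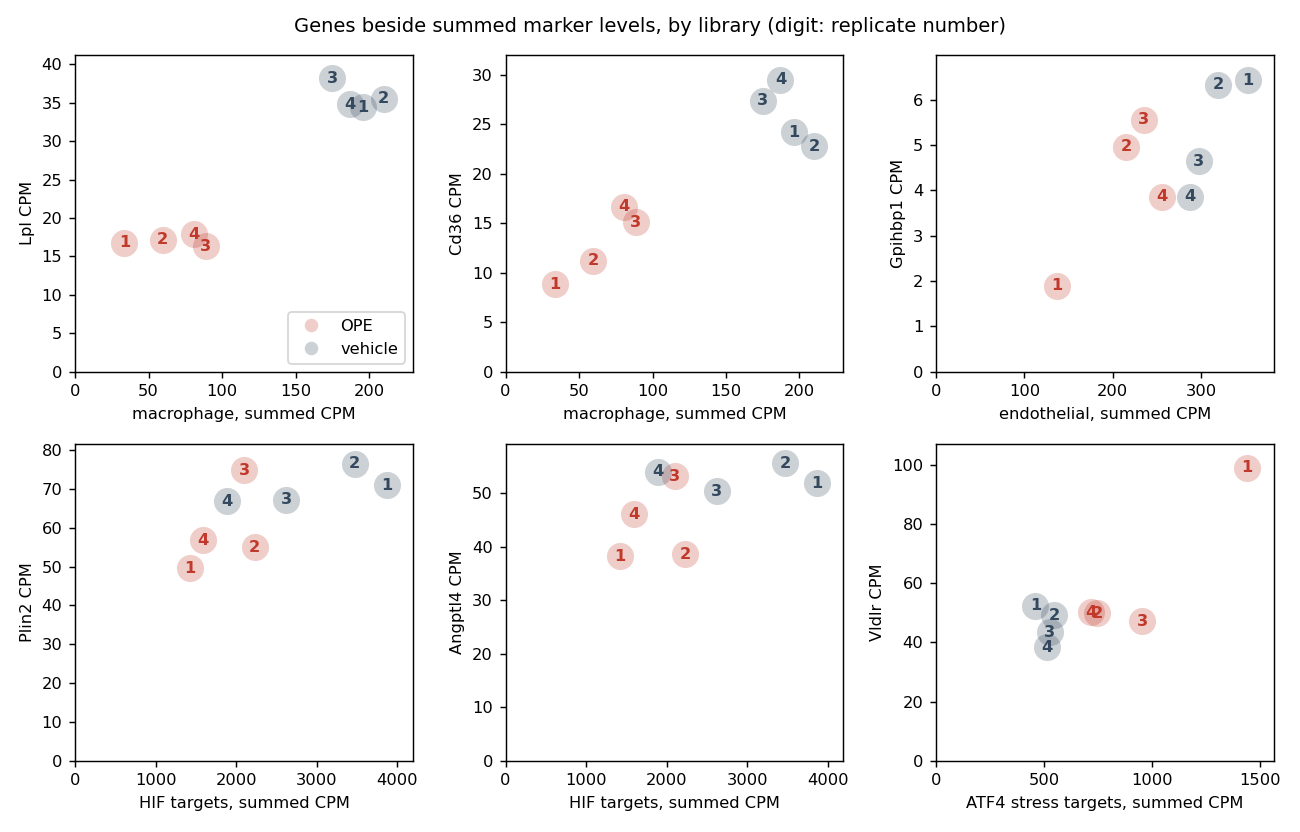
Each panel sets the CPM of a gene (y axis) against the summed CPM of a marker list (x axis) in 4 OPE libraries (red) and 4 vehicle libraries (dark blue), with replicate numbers as digits and both axes from 0. Lpl is flat over OPE libraries whose macrophage sum runs from 33.5 to 88.8 CPM, Cd36 is lowest in OPE 1 and 2, which have the lowest sums, and OPE 1 is extreme for Gpihbp1 and Vldlr.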

How the data were processed

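Messenger RNA of cultured forelimb buds was purified with poly-T beads and sequenced in 8 libraries, assigned to OPE and vehicle by their titles. Tools named in the submitters' processing notes are CASAVA 1.8, STAR 2.5, HTSeq 0.6.1 and DESeq2 2, with build mm10; annotation and strand setting are not stated in the sources used here. Per the file headers, the authors deposited raw read counts per gene, the same counts divided by 1 constant per library (a signal not used here), FPKM values (counts per length column and total), and their own log2 fold change and p-value columns.

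edgeR 4.0.16 under R 4.3.3 tested the raw counts (TMM, filterByExpr, robust quasi-likelihood fit, group as the only term, two-sided) with Benjamini-Hochberg adjustment over 15517 of 21692 genes at 0.05. The standard error is the log2 fold change divided by the square root of F. CPM use TMM-scaled totals; profiles use log2 CPM with a prior count of 2. The common dispersion was 0.0259. Every 2 libraries of a group differed by more than counting noise (lowest chi-square over its degrees of freedom 5.03). The steps were tested on simulated data.

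The 10 genes and all lists were chosen with earlier results of these data known. Named beside the 10 genes were, per list, each gene past the threshold and the 3 of highest vehicle FPKM, and the 8 genes nearest to Lpl in profile; the ATF4 list, the genomic neighbours, Fabp4 and the genes named as DESeq2 calls were chosen with the data in view. Results of some single genes are not reported here. Alternatives were DESeq2 1.42.0, limma-voom (limma 3.58.1), other scaling and filters, a spline of gene length with 4 degrees of freedom, the replicate number as a block, other thresholds and leaving out libraries. Depth (14986793 to 22006738 reads) limits the precision of genes with few reads.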

Additional observations from a re-analysis of the deposited data

Results flagged for a closer look

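Vldlr in OPE 1 stood apart from the other libraries of its group: 99.0 CPM, against 47.2 to 50.2 CPM in OPE 2 to 4. The gap to the nearest library was 0.942 of the group's range, above the critical value of Dixon's test for 4 values. It was the 1 such value in 20 groups examined (10 genes in 2 groups), and chance gives about 1 in 20. The log2 fold change of Vldlr was 0.43 with all libraries and 0.09 without OPE 1.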

How the results depend on the processing

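The alternative fits reuse the libraries with which the 10 genes were chosen, so for these genes they show how the values move with the settings and give no independent support. Lpl passed the threshold in 17 of 17 alternative fits, with log2 fold changes of −1.12 to −1.0; Cd36 passed in 11 of 17, with −1.16 to −0.87, and Plin2 in 1 of 17. The signs of Pnpla2 (−0.18 to 0.09) and Lipe (−0.01 to 0.29) were not stable, and the other 8 genes kept theirs. Of the 10 genes 2 passed, 1 at an adjusted p of 0.01, and 1 to 3 when a library was left out. Over all genes 74 passed, against 131 with library totals, 136 with no filter, 492 in DESeq2, 321 with the length trend removed, 7 at an adjusted p of 0.01 and 243 at 0.1, and 7 to 308 when a library was left out. Of the other lipid genes 1 passed, against 2 with library totals, 3 with no filter, 9 in DESeq2, 6 with the length trend removed, 0 with a filter of 1 CPM, 0 in limma-voom, 0 at an adjusted p of 0.01 and 5 at 0.1, and 0 to 8 when a library was left out. The cause of these shifts was not tested.

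With the replicate number as a block, 62 genes passed, 2 of the 10 genes and 0 of the other lipid genes, Apoc1 having a log2 fold change of −2.24 and an adjusted p of 0.0824. Same-numbered libraries deviated together with correlations of 0.309, 0.0818, 0.0126 and 0.0918 for OPE 1 to 4. OPE 1 and 2 correlated best with the vehicle library of the same number, and OPE 3 and 4 with another number. These values do not settle whether the numbers pair the libraries. Depth limits Gpihbp1 and Lipg most, each with few reads per library.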
